A study of Mus musculus with 10 samples.

Results

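The 10 genes described here build and remodel the actin cytoskeleton. They are the actins Actb and Actg1, the beta-thymosins Tmsb4x and Tmsb10, the monomer-handling genes Pfn1 and Cfl1, Arpc1b and Coro1a of the branched filament network, and Aif1 and Lcp1, which crosslink filaments. They were chosen by symbol and matched through their NCBI gene numbers, 10 of the 46152 genes counted. RNA was sequenced from brain microglia of adult C57BL/6J mice, selected with magnetic beads for the surface protein CD11b after Accutase digestion and a Percoll gradient. The mice were gavaged for 8 days with vehicle (0.1% Tween 80 and 0.5% Hydroxymethyl Propyl-cellulose; 5 libraries) or with GW2580 at 80 mg/kg/d in the same vehicle (5 libraries). GW2580 inhibits the kinase of CSF1R, the receptor through which CSF1 and IL-34 keep microglia alive. Each group held 2 libraries from males (replicates 1 and 2) and 3 from females (replicates 3 to 5).

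Actin exists as single subunits and as filaments. Beta-thymosins bind the single subunits and hold them in reserve, profilin delivers them to growing filament ends, and cofilin cuts old filaments and returns subunits to the pool. The Arp2/3 complex, in which Arpc1b is a subunit, starts new filaments as branches on old ones, coronins remove those branches, and L-plastin (the product of Lcp1) ties filaments into bundles. Microglia use this machinery to extend and retract their processes, to migrate and to engulf debris. Aif1 encodes Iba1, the actin-bundling protein by which microglia are usually stained in tissue.

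The coding sequences of the thymosin pair are shown because they carry the difference between these close relatives, which sets what the counts can tell apart. Both run 5′ to 3′ from the start codon to the stop codon in GENCODE M21 transcripts on GRCm38, with the bases at which they differ in capitals.
Tmsb4x: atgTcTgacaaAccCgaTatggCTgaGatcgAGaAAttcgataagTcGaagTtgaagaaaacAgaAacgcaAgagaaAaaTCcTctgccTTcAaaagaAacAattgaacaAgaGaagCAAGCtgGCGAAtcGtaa
Tmsb10: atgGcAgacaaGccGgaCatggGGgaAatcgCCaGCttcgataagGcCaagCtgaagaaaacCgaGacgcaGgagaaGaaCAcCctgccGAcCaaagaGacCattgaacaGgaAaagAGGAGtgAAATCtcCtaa
The pair shared 95 of 135 coding bases (70.4%), and the longest run of identical bases was 10. Actb and Actg1 were closer, with 1000 of 1128 coding bases identical (88.7%) and a longest identical run of 62 bases. In either pair the identical runs were shorter than a window of 100 bases.

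Copies elsewhere in the genome were another limit, because fragments that aligned to more than 1 place were not counted. Of the windows of 100 bases along the longest protein-coding transcript of Actg1, 51.1% also occurred in a transcript of another annotated gene, among them the pseudogene Actg-ps1. The share was 21.5% for Tmsb10, 6.28% for Lcp1 and 1.10% for Actb, and no such window was found for Tmsb4x or Coro1a. It was 31.1% for Arpc1b and 12.4% for Cfl1, but their transcripts (3105 and 2354 bases) run beyond the exons that were counted (1551 and 1184 bases). The share of their counted exons is thus not known. The search did not separate copies elsewhere from genes that overlap at the same place. For Lcp1, 225 exon bases also lie in Gm15628, a gene that shares some of these windows. Levels of Actg1 and Tmsb10, and to an unknown degree Arpc1b and Cfl1, may be undercounted more than that of Tmsb4x, which bears on levels between genes more than on a gene's difference between groups.

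Aif1 and Pfn1 were limited by the annotation itself. Aif1 was listed at 0 counts in all 10 libraries. It is annotated on chromosome 17 (GRCm38, chr17:35170986-35176083, minus strand) and again on 3 other scaffolds of the assembly, so a count of 0 gives no upper limit to its expression. Of the genes annotated on more than 1 sequence, 714 of 1867 (38.2%) had no count in any library, against 1352 of 44285 (3.05%) of the genes annotated once. Pfn1 (chr11:70651844-70656799, minus strand) is annotated on chromosome 11 and on 1 further scaffold, and 1257 of its 1847 exon bases on chromosome 11 (68.1%) also lie in an exon of Eno3, the muscle enolase gene. The Pfn1 counts, 41 to 464 fragments per library, are what remained after both kinds of fragment were left out. They are read here as a value for part of the gene, and its level was not ranked against the others.

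The other members are annotated on 1 sequence each. Actb (chr5:142903115-142907976, minus strand) and Actg1 (chr11:120345687-120348495, minus strand) have 2133 and 1953 exon bases. Tmsb4x (chrX:167207093-167213479, minus strand) and Tmsb10 (chr6:72957347-72958748, minus strand) are the shortest, with 947 and 943 exon bases. Cfl1 (chr19:5490455-5494031, plus strand) has 1184, Arpc1b (chr5:145114256-145128186, plus strand) 1551 and Coro1a (chr7:126699774-126704816, minus strand) 2156. Lcp1 (chr14:75131105-75230842, plus strand) is the longest, with 4935 exon bases. Counting was not stranded, and 18.8% of the Actb exon bases and 4.56% of those of Lcp1 also lie in an exon of a predicted gene.

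Fragments assigned to genes ranged from 12550418 to 20854218 with vehicle and from 13228819 to 26079343 with GW2580. Levels are given as CPM, a gene's fragments relative to the size of the library after TMM scaling, which sets libraries level on the bulk of their genes, and the scaling factors ran from 0.691 (GW2580 3) to 1.61 (GW2580 4). All 10 microglia markers (among them Tmem119, P2ry12, Cx3cr1 and Csf1r) were measured, and their sum ran from 17413 to 30199 CPM with vehicle and from 21554 to 70888 CPM with GW2580. RNA of other cells was present in some libraries. The sum of the choroid plexus and ependymal markers Ttr, Kl, Folr1 and Foxj1 was 25666 CPM in Vehicle 5, against 1201 to 2951 CPM in the other vehicle libraries and 149 to 3522 CPM with GW2580. Oligodendrocyte markers summed to 15381 CPM in Vehicle 2 and 3772 CPM in Vehicle 5, against 155 to 298 CPM in the other vehicle libraries and 163 to 1505 CPM with GW2580. Monocyte and granulocyte markers ran from 184 (Vehicle 5) to 12930 CPM (Vehicle 1) and from 161 (GW2580 3) to 3614 CPM (GW2580 5). Astrocyte markers ran from 162 to 829.4 CPM with vehicle and from 151 to 337 CPM with GW2580, neuron markers from 54.0 to 375 and from 41.6 to 98.8 CPM, lymphocyte markers from 22.9 to 359 and from 7.61 to 66.9 CPM, and erythroid markers from 39.2 to 1769 and from 32.6 to 312 CPM. Endothelial markers (48.1 to 85.1 and 70.0 to 89.5 CPM, Cldn5 at 0 and annotated on 2 sequences) and mural markers (48.1 to 54.5 and 30.004 to 61.0 CPM) were low in every library. By group, all tested markers of the choroid plexus and ependyma (3), lymphocytes (4), oligodendrocytes (7), astrocytes (7) and erythroid cells (4) had a log2 fold change below 0 with GW2580, as did 5 of 6 for neurons and 5 of 6 for monocytes and granulocytes, while 9 of 10 microglia markers lay above 0. Changes of more than 2-fold with p under 0.05 before adjustment, found in 10.7% of all genes, were seen in 3 of the choroid plexus, 3 of the lymphocyte and 3 of the oligodendrocyte markers. Such changes were also seen in 2 of 10 microglia, 1 of 7 astrocyte, 1 of 6 neuron and 1 of 6 monocyte and granulocyte markers. Of the endothelial, mural and erythroid markers, 0 passed both thresholds. The part of these markers' cells in the members' differences was not tested.

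The replicate 5 libraries stood apart in some of the members. Vehicle 5 held the lowest Tmsb4x and Actb of its group, and GW2580 5 the highest Tmsb4x of all libraries. In Tmsb4x, Vehicle 5 lay within the range of GW2580 1 to 4, and GW2580 5 lay above every vehicle library. In Lcp1, Vehicle 5 was the highest of its group, and GW2580 5 lay below every vehicle library. In these genes each thus lay on the side of the group opposite to its label. This was not so in every member. In Tmsb10, Vehicle 5 (41.9 CPM) lay above GW2580 1 to 4, while GW2580 5 lay among the vehicle libraries. Coro1a stood at 638 CPM in Vehicle 5 and 639 CPM in GW2580 5. Both libraries were kept in the groups their labels give, and whether the labels hold was not tested. The main results that rest on either library are given with and without it. In these bulk samples, fewer cells of a type and less RNA per cell cannot be told apart.

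The members took 3.71%, 2.57%, 3.12%, 2.56% and 0.728% of all assigned fragments in Vehicle 1 to 5, and 1.57%, 2.73%, 1.69%, 1.07% and 3.92% in GW2580 1 to 5. Most of this was Tmsb4x and Actb. Tmsb4x ranked between 3rd and 8th of all genes by counts in Vehicle 1 to 4 and 95th in Vehicle 5, and between 27th and 61st in GW2580 1 to 4 and 2nd in GW2580 5. Actb ranked between 2nd and 14th in every library.

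Per kilobase of exon, Tmsb4x (8996 ± 7893 CPM per kb, SD, n = 10 libraries) and Actb (5427 ± 2424) led the order, followed by Cfl1 (927 ± 327), Actg1 (475 ± 177), Arpc1b (431 ± 160), Coro1a (423 ± 165), Lcp1 (118 ± 72.3) and Tmsb10 (39.5 ± 18.6). Neighbours in this order were compared by an exact sign-flip test of their log2 differences within libraries, two-sided, adjusted over 7 steps. The order was taken from the same values, which set the direction of each step, so the p-values are no independent support for it. The steps from Actb to Cfl1 (2.47 log2), Cfl1 to Actg1 (0.94) and Coro1a to Lcp1 (1.96) held in all 10 libraries (adjusted exact p = 0.00456 each). That from Lcp1 to Tmsb10 (1.58) held in 9 of 10 (adjusted exact p = 0.00684). Actg1 and Tmsb10, and to an unknown degree Arpc1b and Cfl1, may be undercounted, as given above. Steps that involve them compare counted fragments and may not hold for RNA. Tmsb4x and Actb (5 of 10 libraries, p = 0.664, exact) did not differ beyond their spread, nor did Actg1 and Arpc1b (p = 0.410, exact) or Arpc1b and Coro1a (p = 0.664, exact). The order was not the same in both groups. The step from Lcp1 to Tmsb10 was 0.57 log2 with vehicle (4 of 5 libraries) and 2.59 with GW2580 (5 of 5). By mean log2 level, Actb stood above Tmsb4x with GW2580 (by 0.37, 4 of 5 libraries) and below it with vehicle (by 0.66, 4 of 5). Coro1a stood above Arpc1b in 5 of 5 GW2580 libraries, by 0.08. These differences in order between the groups were not tested.

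**Figure D1:**
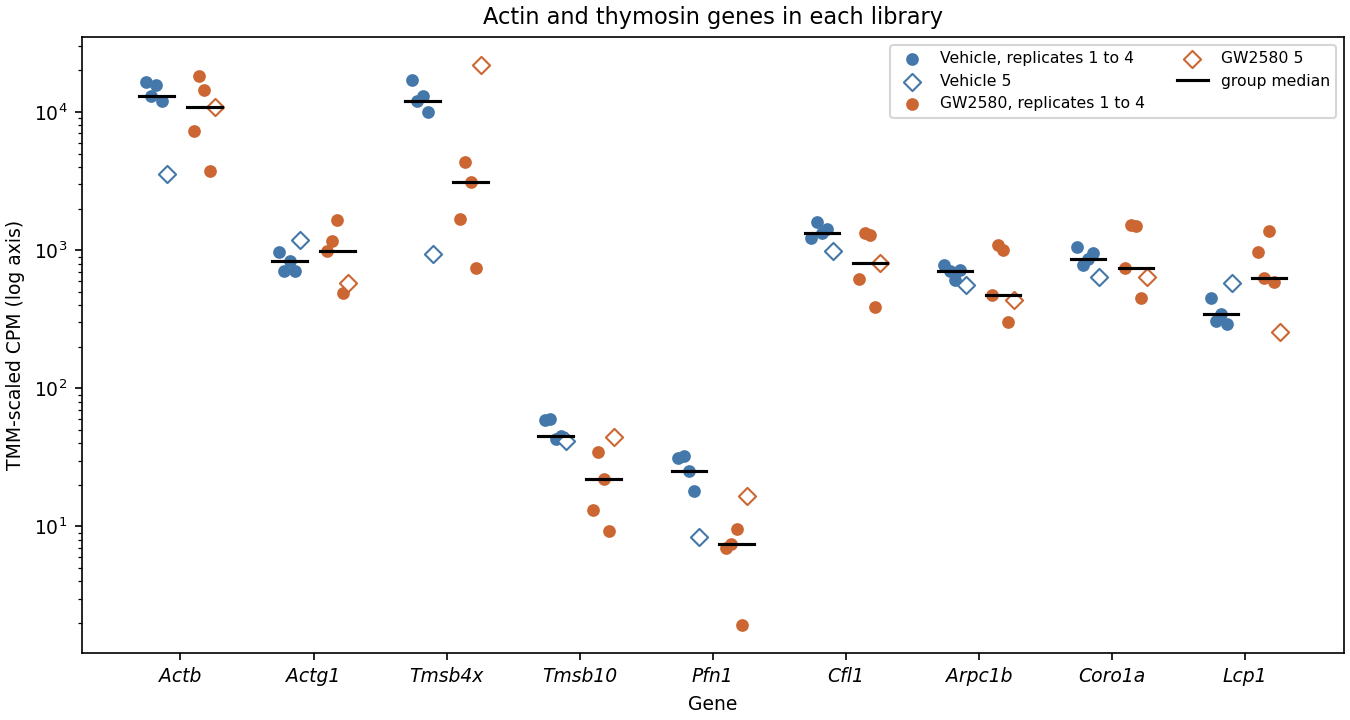
Expression of the 9 measured members in each library, as TMM-scaled CPM on a log axis, with vehicle in blue, GW2580 in orange, replicate 5 of each group as an open diamond and the group median as a bar. Tmsb4x spans 932 to 17146 CPM with vehicle and 747 to 22006 CPM with GW2580, while the vehicle libraries of Arpc1b stay between 557 and 777 CPM.

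GW2580 was compared with vehicle to ask how blocking CSF1R changed the RNA of these microglia. The study's thresholds were used to call genes, a fold change above 2 together with p under 0.05 before adjustment, in edgeR's quasi-likelihood test. Of the 9 members tested, 2 were called, Tmsb10 and Pfn1, both lower with GW2580, and 0 were called higher. Over all 28419 genes tested, 10.7% were called, 6.7% lower and 4.01% higher. The smallest adjusted p of any gene was 0.280, so 0 genes passed an adjusted p of 0.05, while 4186 (14.7%) had an unadjusted p under 0.05, among them 3 members, Tmsb10, Pfn1 and Lcp1, and DESeq2 gave 232 genes under an adjusted p of 0.05. No member's groups were free of overlap, against 3.03% of all genes (2.04% higher and 0.985% lower). The median log2 fold change of the 9 members was -0.16, with 6 below 0, against a median of -0.03 and 51.6% below 0 over all genes.

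Tmsb10 encodes the thymosin that is expressed widely in developing tissue. It stood at 58.9, 60.1, 43.1, 45.3 and 41.9 CPM in Vehicle 1 to 5. In GW2580 1 to 5 it stood at 13.1, 34.4, 22.2, 9.33 and 44.6 CPM. All 5 vehicle libraries lay within a 1.44-fold range, 4 of 5 GW2580 libraries lay below every vehicle library, and GW2580 5 lay among them. Its mean fell from 49.9 ± 8.91 to 24.7 ± 14.7 CPM (SD, n = 5), a log2 fold change of -1.01 ± 0.40 (SE; p = 0.0248, adjusted p = 0.289, edgeR; p = 0.0238, two-sided exact permutation test on log2 CPM). The call was close to its fold threshold, since the fold was 2.02, and it was lost in 11 of 25 alternative fits although the sign was kept in all of them. Without GW2580 4 the log2 fold change was -0.80, without GW2580 5 it was -1.41, and without Vehicle 5 it was -1.07.

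Pfn1, the profilin that loads subunits onto growing filaments, stood at 31.4, 32.5, 25.3, 17.97 and 8.37 CPM in Vehicle 1 to 5. With GW2580 the 5 values were 7.04, 7.51, 9.56, 1.94 and 16.5 CPM. Every GW2580 library lay below the vehicle median, but Vehicle 5 lay within the GW2580 range and GW2580 5 just under Vehicle 4. The mean fell from 23.1 ± 10.1 to 8.51 ± 5.28 CPM (SD, n = 5), a log2 fold change of -1.44 ± 0.49 (SE; p = 0.0113, adjusted p = 0.280, edgeR; p = 0.0317, exact permutation). It was called in 24 of 25 alternative fits, the exception being the females alone (-0.86), and stood at -1.66 without Vehicle 5 and -1.92 without GW2580 5. These values come from the small part of Pfn1 that could be counted.

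Tmsb4x, the most abundant beta-thymosin of most cells, varied more than any other member. It stood at 17146, 12094, 13059, 10025 and 932 CPM in Vehicle 1 to 5. In GW2580 1 to 5 it stood at 1690, 4356, 3138, 747 and 22006 CPM. In replicates 1 to 4 every GW2580 library lay below every vehicle library, and in replicate 5 the order was the opposite. Vehicle libraries averaged 10651 ± 6019 CPM and GW2580 libraries 6387 ± 8839 CPM (SD, n = 5), a log2 fold change of -0.74 ± 0.88 (SE; p = 0.414, adjusted p = 0.709, edgeR; p = 0.310, exact permutation). It was -2.19 without GW2580 5 and -2.37 in the males, both called, -1.03 without Vehicle 5, -0.44 without GW2580 4 and 0.14 in the females, which include both replicate 5 libraries. The difference between the sexes did not pass the test of sex by treatment (-2.38 ± 1.89 log2, male minus female; adjusted p = 1.00, edgeR). Monocyte and granulocyte markers were lowest among the vehicle libraries in Vehicle 5 and highest among the GW2580 libraries in GW2580 5, as Tmsb4x was, and their part in its values was not tested.

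The actins differed in profile over the libraries. Actb, the standard cytoplasmic actin and a common reference gene, stood at 16604, 13102, 15636, 12107 and 3591 CPM in Vehicle 1 to 5. After GW2580 its levels were 7326, 18231, 14471, 3745 and 10934 CPM. Vehicle 5 and GW2580 4 were the low libraries and the groups overlapped over nearly their whole range (log2 fold change -0.16 ± 0.57 SE, p = 0.787, edgeR; p = 0.738, exact permutation). Actb thus varied 4.62-fold within vehicle and 4.87-fold within GW2580. The vehicle range rested on Vehicle 5, since Vehicle 1 to 4 lay between 12107 and 16604 CPM.

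Actg1, the other cytoplasmic actin, stood at 966, 705, 838, 704 and 1193 CPM in Vehicle 1 to 5, so that Vehicle 5 was its highest vehicle library where it was the lowest for Actb. In GW2580 1 to 5 it stood at 979, 1172, 1647, 487 and 580 CPM. The log2 fold change was 0.14 ± 0.41 (SE; p = 0.730, edgeR; p = 0.992, exact permutation), and it turned to -0.13 without GW2580 3.

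Cfl1, the cofilin of non-muscle cells, stood at 1222, 1597, 1324, 1417 and 991 CPM in Vehicle 1 to 5. Its GW2580 libraries, in the same order, held 617, 1341, 1281, 385 and 804 CPM. GW2580 1, 4 and 5 lay below every vehicle library and GW2580 2 and 3 among them, and the vehicle mean of 1310 ± 226 CPM stood against 886 ± 416 CPM (SD, n = 5). The log2 fold change of -0.57 ± 0.41 did not pass the test (SE; p = 0.189, adjusted p = 0.521, edgeR; p = 0.0873, exact permutation). With single libraries left out it ran from -0.76 (without GW2580 2) to -0.37 (without GW2580 4).

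Arpc1b and Coro1a, which act on branched networks in blood-derived cells and microglia, had nearly the same profile over the 10 libraries. Arpc1b stood at 777, 710, 610, 719 and 557 CPM in Vehicle 1 to 5. In GW2580 1 to 5 it stood at 471, 1093, 1011, 303 and 438 CPM. The vehicle libraries lay within a 1.40-fold range, while the GW2580 libraries split to both sides of it, with 2 above and 3 below every vehicle library.

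Coro1a stood at 1054, 779, 865, 954 and 638 CPM in Vehicle 1 to 5. Under GW2580 it measured 738, 1523, 1490, 448 and 639 CPM, again with GW2580 2 and 3 above every vehicle library. Neither mean differed between the groups beyond the spread (log2 fold change -0.02 ± 0.41 SE for Arpc1b, p = 0.953, and 0.17 ± 0.41 SE for Coro1a, p = 0.683, edgeR; exact permutation p = 0.635 and 0.944).

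Lcp1, the plastin of leukocytes, was the member with the highest log2 fold change. It stood at 453, 305, 346, 294 and 575 CPM in Vehicle 1 to 5. In GW2580 1 to 5 it stood at 977, 634, 1386, 587 and 254 CPM. GW2580 1 to 4 lay above every vehicle library, and GW2580 5 lay below every one. Vehicle libraries averaged 395 ± 119 CPM and GW2580 libraries 768 ± 430 CPM (SD, n = 5), a log2 fold change of 0.96 ± 0.44 (SE; p = 0.0486, adjusted p = 0.338, edgeR; p = 0.127, exact permutation). At a fold of 1.94 it stood just outside the call, and it was called in 4 of 25 alternative fits, among them those without Vehicle 5 (1.13), without GW2580 5 (1.11) and with library size alone in place of TMM (1.14). The unadjusted p was under 0.05 in 10 of the 25. The log2 fold change was 0.64 without GW2580 3, the lowest of all, 0.84 with the replicate number as a block and 0.79 with limma-voom, none of them called.

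**Figure D2:**
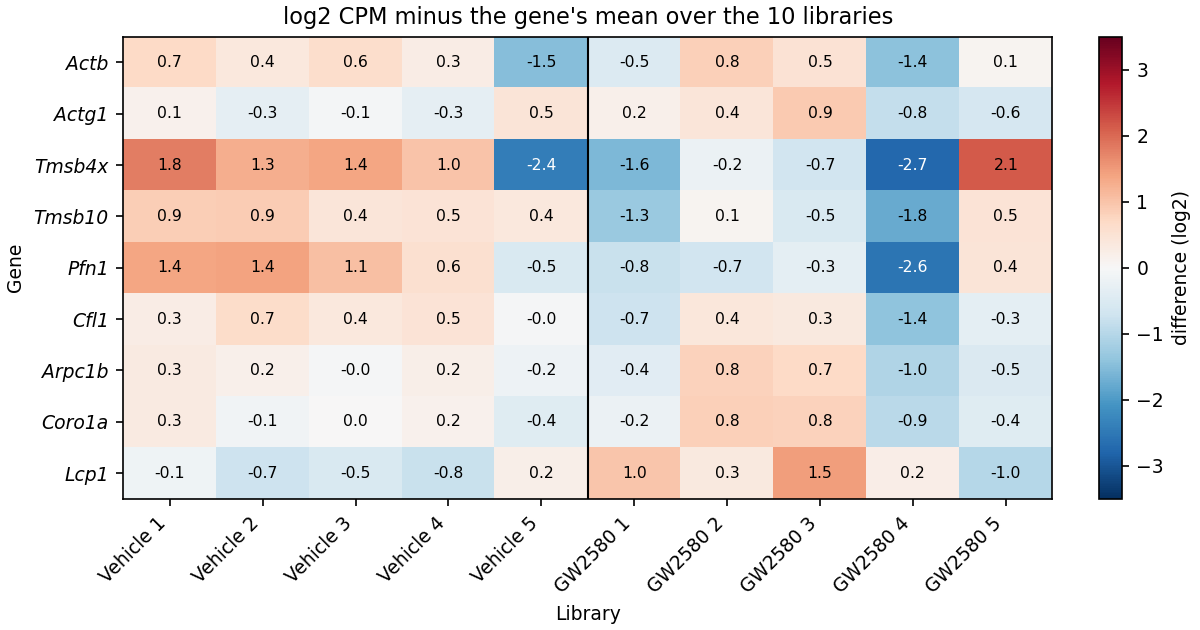
Log2 CPM of each measured member (rows) in each library (columns), minus the gene's mean over the 10 libraries, with vehicle left and GW2580 right of the line. Tmsb4x is above its mean in Vehicle 1 to 4 and GW2580 5 and below it in the other 5 libraries, and Lcp1 has the opposite sign in all 10 libraries.

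The likeness of profiles was measured as the mean absolute difference of centred log2 CPM over the 10 libraries. All genes of a library share its depth and scaling, and the part of these in the likeness was not tested. The nearest pair of members was Arpc1b and Coro1a, at 0.12 log2 units, followed by Actg1 and Coro1a (0.29) and Cfl1 and Arpc1b (0.30). The actins were 0.72 apart and the thymosins 0.89. The pair farthest apart was Tmsb4x and Lcp1, at 2.15. Among 7572 genes of at least 20 CPM that are not members, those nearest the mean profile of the 9 members were Npc2 (0.11), a lysosomal cholesterol carrier, Oser1 (0.11), Ctsl (0.11), the lysosomal protease cathepsin L, Ostf1 (0.13) and Gtf2b (0.13), a general transcription factor. For Tmsb4x alone, the nearest were Tyrobp (0.09), the adaptor DAP12 of microglial surface receptors, and Fcer1g (0.17), the adaptor of Fc receptors, a choice made after their values were seen.

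GW2580 4 was the lowest library of its group for 8 of the 9 members, all but Lcp1, and it also had the largest TMM factor (1.61) and the highest share of records on no annotated exon (60.1%, against 38.4% to 49.1% with vehicle and 38.7% to 56.1% in the other GW2580 libraries). The part of either in the members' values was not tested.

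Exon length moved with the fold changes. Among genes of at least 20 CPM with under 1000 exon bases, 377 of 385 (97.9%) had a log2 fold change below 0, with a median of -0.9997. The share was 88.8% from 1000 to under 2000 bases (median -0.54), 46.3% from there to under 4000 (median 0.05) and 36.8% at 4000 or more (median 0.13). Of the members, Tmsb10 (-1.01) and Cfl1 (-0.57) lay close to the median of their length class, Tmsb4x (-0.74) lay above it, and the longest, Lcp1 (0.96), lay above that of its own. Arpc1b (1551 bases, -0.02) and Actg1 (1953 bases, 0.14) lay above the median of their class, that from 1000 to under 2000 bases. The result depended on how length was modelled. With a loess trend on length over all genes tested removed from each library, Tmsb10 kept its call (-1.05, adjusted p = 0.248, edgeR), as did Pfn1 (-1.38), with Tmsb4x at -0.77, Cfl1 at -0.50 and Lcp1 at 0.98. With the trend fitted instead over the genes of at least 20 CPM, a choice made after the data were seen, Tmsb10 stood at a log2 fold change of -0.11 and was not called, Tmsb4x at -0.13, Cfl1 at 0.27, Arpc1b at 0.47 and Lcp1 at 0.73. Pfn1 was then the 1 member called (-1.42), on an exon length that counts its second copy. Over all genes that fit called 714 genes lower and 4002 higher, against 1932 and 1308 with the trend over all genes.

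**Figure D3:**
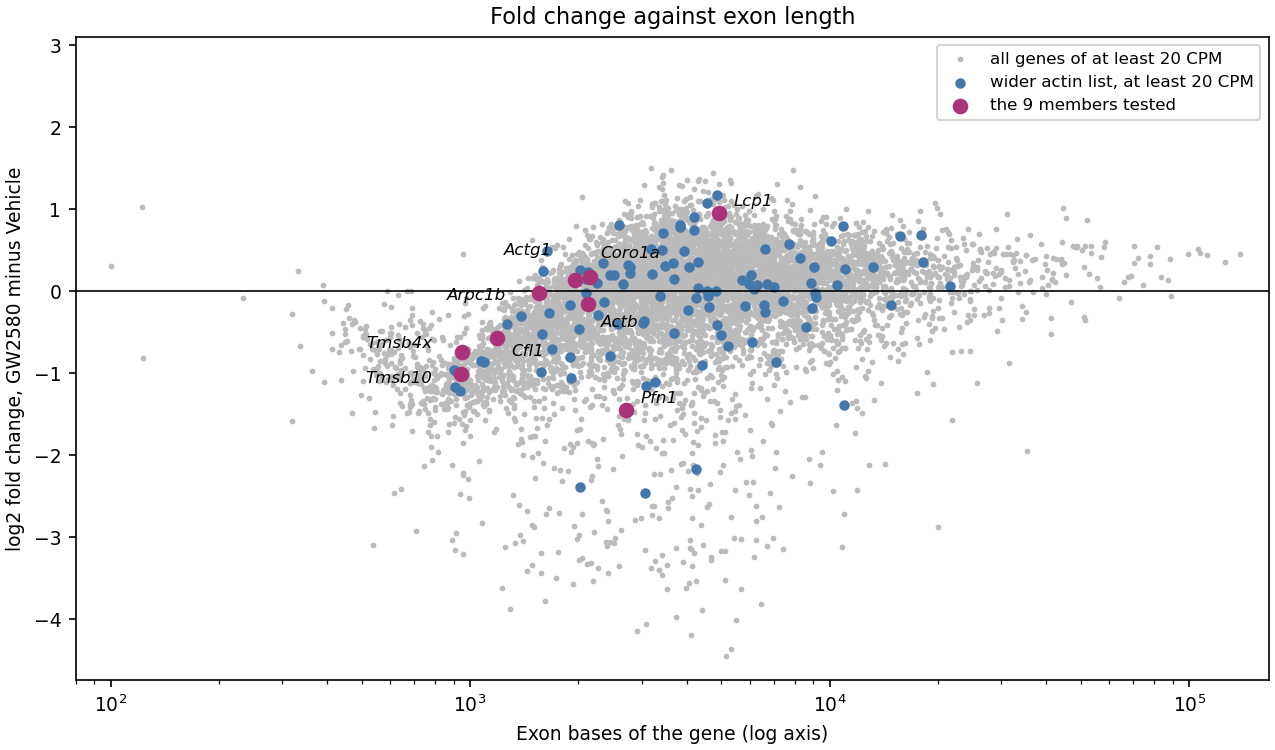
Log2 fold change, GW2580 minus vehicle, against the exon bases of each gene on a log axis, for all genes of at least 20 CPM (grey), the wider actin list at that level (blue) and the 9 measured members (purple). Genes under 1000 bases lie mostly below 0, and Tmsb10 (-1.01) and Tmsb4x (-0.74) lie among them, while Lcp1 (0.96) lies among the longer genes near the upper edge.

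Ratios within a library do not depend on its scaling, and 4 were compared by a two-sided exact permutation test, adjusted over the 4. For each 100 Actb fragments there were 5.82, 5.38, 5.36, 5.82 and 33.2 of Actg1 in Vehicle 1 to 5, and 13.4, 6.43, 11.4, 13.01 and 5.30 in GW2580 1 to 5. Vehicle 1 to 4 were almost identical, while Vehicle 5 stood far above them. The groups did not differ beyond their spread (log2 difference 0.21, p = 0.857, adjusted p = 0.984, exact). Without Vehicle 5 the difference was 0.73 (p = 0.0873, exact).

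For each 100 Tmsb4x fragments there were 0.344, 0.497, 0.3301, 0.452 and 4.49 of Tmsb10 in Vehicle 1 to 5, and 0.778, 0.790, 0.706, 1.25 and 0.203 in GW2580 1 to 5. In replicates 1 to 4 every GW2580 library lay above every vehicle library, and replicate 5 lay the other way round. The log2 difference was -0.01 (p = 0.984, adjusted p = 0.984, exact), 0.69 without Vehicle 5 and 0.40 without GW2580 5.

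Arpc1b is the Arpc1 subunit of blood-derived cells and Arpc1a its widely expressed relative. For each 100 Arpc1a fragments there were 1379, 618, 1104, 1115 and 496 of Arpc1b in Vehicle 1 to 5, lowest in the libraries with the most oligodendrocyte marker RNA, Vehicle 2 and 5. In GW2580 1 to 5 there were 1038, 1410, 1240, 898 and 1024 (log2 difference 0.34, p = 0.325, adjusted p = 0.651, exact). Leaving out single libraries gave differences from 0.13 (without Vehicle 5) to 0.50 (without Vehicle 1). Without Vehicle 2 and 5 the difference was -0.11, and the part of that marker RNA in the ratio was not tested. For each 100 Cfl1 fragments, 2.57, 2.03, 1.91, 1.27 and 0.844 of Pfn1 were counted in Vehicle 1 to 5 and 1.14, 0.560, 0.746, 0.504 and 2.05 in GW2580 1 to 5 (log2 difference -0.89, p = 0.0952, adjusted p = 0.381, exact). With single libraries left out it ran from -0.69 (without GW2580 4) to -1.20 (without GW2580 5, p = 0.0317, exact and unadjusted), and without Vehicle 5 it was -1.12.

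**Figure D4:**
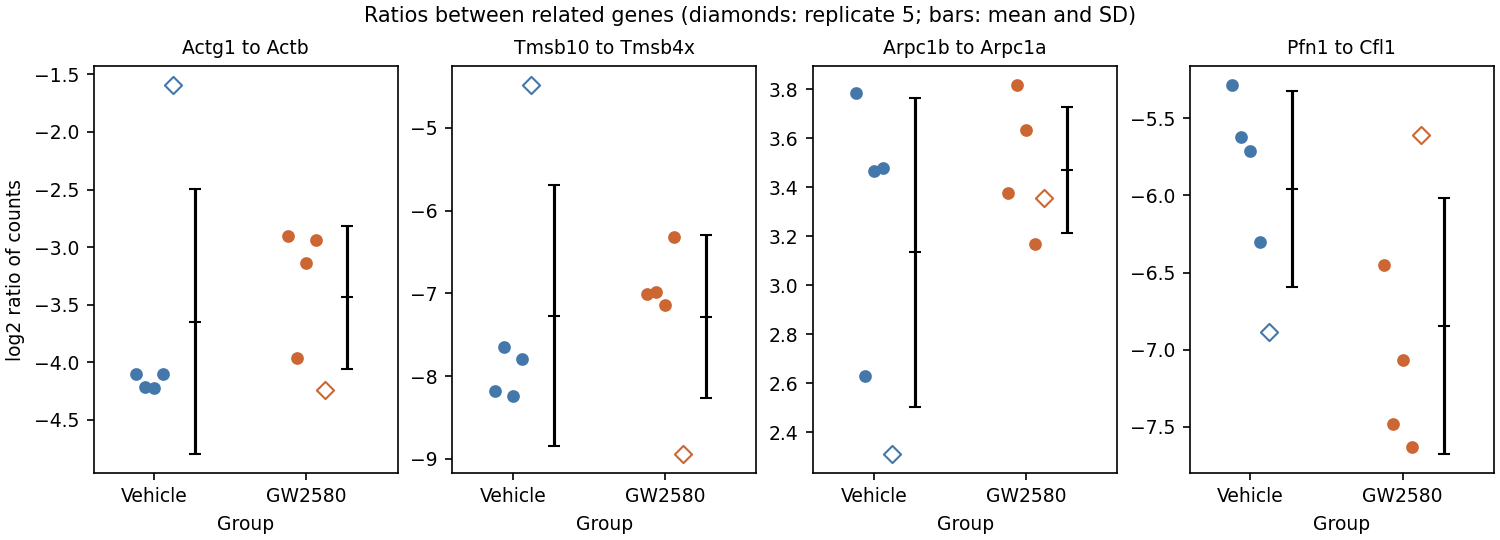
Log2 ratio of the counts of related genes in each library, in a panel for each ratio with its own axis, with replicate 5 as an open diamond and bars for the mean and SD (n = 5). In the thymosin ratio Vehicle 5 (-4.48) lies far above Vehicle 1 to 4 (-8.24 to -7.65), and GW2580 5 (-8.95) far below GW2580 1 to 4.

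A wider list of 145 other genes of the actin cytoskeleton was taken in 14 groups by role, of which 13 are described. Of 138 tested, 11 were called lower and 3 higher (10.1%, against 10.7% of all genes), with a median log2 fold change of -0.15. Those not tested were Coro1b, annotated on more than 1 sequence, Tagln, Pfn3, Tmsb15a, Tmsb15b1, Tmsb15b2 and Tmsb15l. The balance turned without Vehicle 2 and 5, where 9 were called higher and 6 lower, as it did over all genes, from 1141 higher and 1905 lower to 1397 and 938. Of the 138, only Tpm2 (lower) and Fmnl2 (higher) had groups that did not overlap, against 3.03% of all genes. As among the members, the short genes of at least 20 CPM on this list mostly lay below 0, 3 of 3 under 1000 exon bases and 11 of 13 from there to under 2000, against 14 of 36 from there to under 4000 and 21 of 51 at 4000 or more. Called genes named below that are not the most abundant of their group, and Arpc5l and Fmnl2, were named after their values were seen.

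Of 9 further subunits and relatives of the Arp2/3 complex, 7 had a log2 fold change below 0 and 0 were called. The most abundant were Arpc4 (461 ± 111 CPM with vehicle and 379 ± 167 CPM with GW2580, log2 fold change -0.28) and Arpc2 (442 ± 94.2 and 367 ± 159 CPM, -0.27). The smaller subunit Arpc5l had the lowest value (-0.99). The Arp2/3 complex is switched on by nucleation-promoting factors, of which 1 of 17 was called higher and 1 lower. Nckap1l, the Hem1 subunit of the WAVE complex in blood cells, stood at 112, 79.8, 125, 93.8 and 288 CPM in Vehicle 1 to 5 and at 402, 136, 614, 318 and 104 CPM in GW2580 1 to 5 (log2 fold change 1.17 ± 0.52 SE, p = 0.0407, adjusted p = 0.321, edgeR; p = 0.0794, exact permutation). Here too replicate 5 lay the other way round, and the log2 fold change was 1.62 without Vehicle 5, 1.33 without GW2580 5 and 0.78 without GW2580 3. It was called in 15 of 25 alternative fits, and not with limma-voom, with the replicate number as a block or in the females alone. The call was also lost when Vehicle 1, 2, 3 or 4 or GW2580 1, 3 or 4 was left out singly. Abi3 (882 ± 189 and 945 ± 468 CPM) and Cyfip1 (398 ± 105 and 593 ± 319 CPM), the most abundant of this group, were not called.

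The nonmuscle and unconventional myosins, light and heavy chains together, were the group with the lowest median (-0.74). Of its 10 members 3 were called lower, each a light chain, against 6.7% of all genes called lower. Myl12b, a regulatory light chain, stood at 707, 795, 615, 691 and 371 CPM in Vehicle 1 to 5 and at 158, 426, 314, 90.5 and 379 CPM in GW2580 1 to 5 (log2 fold change -1.22 ± 0.44 SE, p = 0.0157, adjusted p = 0.280, edgeR; p = 0.0238, exact permutation). Its paralog Myl12a ranked the GW2580 libraries in the same order, and stood at 320 ± 60.8 and 154 ± 82.0 CPM (-1.06). With the length trend over all genes removed Myl12b was called (-1.19) and Myl12a was not (-0.98), and with that of genes of at least 20 CPM neither was (-0.22 and -0.82). Without GW2580 4 both calls were lost as well (-0.99 and -0.82), and Myl12a was called in 17 of 25 alternative fits, lost also without Vehicle 3 and without GW2580 1. Myl6, the essential light chain and with 907 exon bases as short as the thymosins, stood at 396 ± 137 and 177 ± 174 CPM (-1.17; p = 0.0643, edgeR; p = 0.0397, exact permutation) and was not called. The third called gene, Myl9, stood at 3.86 ± 3.69 and 0.827 ± 0.287 CPM, and it was not called without Vehicle 2 and 5 (-0.57).

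Tropomyosins coat filaments and set which proteins may bind them. Tpm2 stood at 5.41 to 9.66 CPM with vehicle and at 1.13 to 3.82 CPM with GW2580, and it was called in 24 of 25 alternative fits, both on length included (log2 fold change -1.35 ± 0.41 SE, p = 0.00492, adjusted p = 0.280, edgeR; p = 0.00794, exact permutation, the smallest these groups allow). The abundant tropomyosins Tpm3 (521 ± 65.8 and 641 ± 270 CPM) and Tpm4 (56.4 ± 16.6 and 62.7 ± 26.4 CPM) were not called. Formins build unbranched filaments, and 1 of 13 was called, Fmnl3, while Fmnl1 (65.2 ± 7.59 and 80.2 ± 30.7 CPM) was not. Fmnl3 stood at 122, 106, 127, 99.9 and 153 CPM in Vehicle 1 to 5 and at 298, 141, 482, 255 and 109 CPM in GW2580 1 to 5 (1.08 ± 0.40 SE, p = 0.0181, adjusted p = 0.280, edgeR; p = 0.0714, exact permutation). It was called in 19 of 25 alternative fits, and like Nckap1l it was not called with limma-voom, with the block or without GW2580 3 (0.73). Fmnl3 was also not called in either sex alone or with the length trend of genes of at least 20 CPM removed (0.83). Its relative Fmnl2 was higher in every GW2580 library (17.1 to 20.95 CPM) than in any vehicle library (10.4 to 15.7 CPM), but its log2 fold change of 0.53 was under the threshold.

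Several called genes rested on Vehicle 5, the library with the most choroid plexus marker RNA. Ezr, which ties filaments to the membrane of epithelial cells, stood at 1199 CPM in Vehicle 5, against 16.02 to 57.2 CPM in the other vehicle libraries and 16.2 to 61.1 CPM with GW2580. Cttn, or cortactin, stood at 240 CPM there, against 11.6 to 19.1 CPM and 9.78 to 19.98 CPM. Pfn2, the profilin of neurons, stood at 95.9 CPM in Vehicle 5 and 69.2 CPM in Vehicle 2, against 1.84 to 3.61 CPM in Vehicle 1, 3 and 4 and 2.78 to 11.6 CPM with GW2580. Coro2b (66.2 CPM in Vehicle 5) and Cfl2 (97.5 CPM) were also highest in that library. Without Vehicle 5 none of these 5 was called, and 9 of the 14 genes remained among 19 called, 7 of them higher. Without Vehicle 2 and 5, Ezr and Pfn2 were called higher with GW2580 (1.14 and 1.21).

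The other groups held few calls. The other actins split, with Acta1 lower (3.81 ± 3.32 and 1.503 ± 0.884 CPM) and Actg2 higher (1.39 ± 0.756 and 3.58 ± 1.89 CPM), both at levels near the filter. Acta1 rested on Vehicle 2 (9.59 CPM, against 1.66 to 3.67 CPM in the other vehicle libraries), and without it the log2 fold change was -0.66 and not called, while the smooth muscle actin Acta2 was not called (9.95 ± 1.75 and 13.9 ± 2.49 CPM). Among the bundling and crosslinking genes, 1 of 14 was called, Aif1l, the paralog of Aif1, at 2.90 ± 1.48 and 1.24 ± 0.474 CPM, and 11 of 14 lay below 0. Aif1l was also not called without Vehicle 2 (-0.94). Marcks (699 ± 163 and 1172 ± 591 CPM) and Fscn1 (190 ± 145 and 202 ± 97.8 CPM) were the most abundant of them. Of 11 capping genes 0 were called, with Capzb at 743 ± 186 and 541 ± 241 CPM and Capza2 at 522 ± 124 and 599 ± 279 CPM. Of the 15 severing genes Cfl2 alone was called, and Wdr1, the partner of cofilin, stood at 232 ± 133 and 298 ± 156 CPM. Ssh2, a phosphatase that activates cofilin, stood at 171 ± 64.7 and 275 ± 122 CPM. Of 5 other coronins tested Coro2b alone was called, with Coro1c at 55.4 ± 15.97 and 90.7 ± 47.3 CPM and Coro7 at 54.7 ± 44.0 and 68.0 ± 34.7 CPM. Of 6 other monomer-binding genes Pfn2 alone was called, with Twf2 at 246 ± 63.8 and 293 ± 150 CPM and Cap1 at 45.6 ± 6.99 and 55.8 ± 20.5 CPM.

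Among 10 linkers of filaments to membrane and adhesions, 8 lay above 0, with Fermt3 (248 ± 40.6 and 435 ± 255 CPM) and Msn (220 ± 139 and 385 ± 236 CPM) most abundant and Ezr alone called. The transcription factor SRF and its coactivators read the pool of free actin subunits and turn on actin genes. Their log2 fold changes between the groups lay close to 0. Mrtfb stood at 34.1 ± 2.01 and 30.2 ± 3.22 CPM and Mrtfa at 29.6 ± 31.3 and 25.9 ± 8.79 CPM, and 0 of the 3 were called. For Mrtfa the vehicle mean was raised by Vehicle 5 (85.5 CPM, against 13.95 to 17.3 CPM in Vehicle 1 to 4). GW2580 1 to 4 (17.5 to 35.8 CPM) lay above Vehicle 1 to 4, and GW2580 5 (15.8 CPM) lay among Vehicle 1 to 4. The part of Vehicle 5 in the Mrtfa log2 fold change was not tested.

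**Figure D5:**
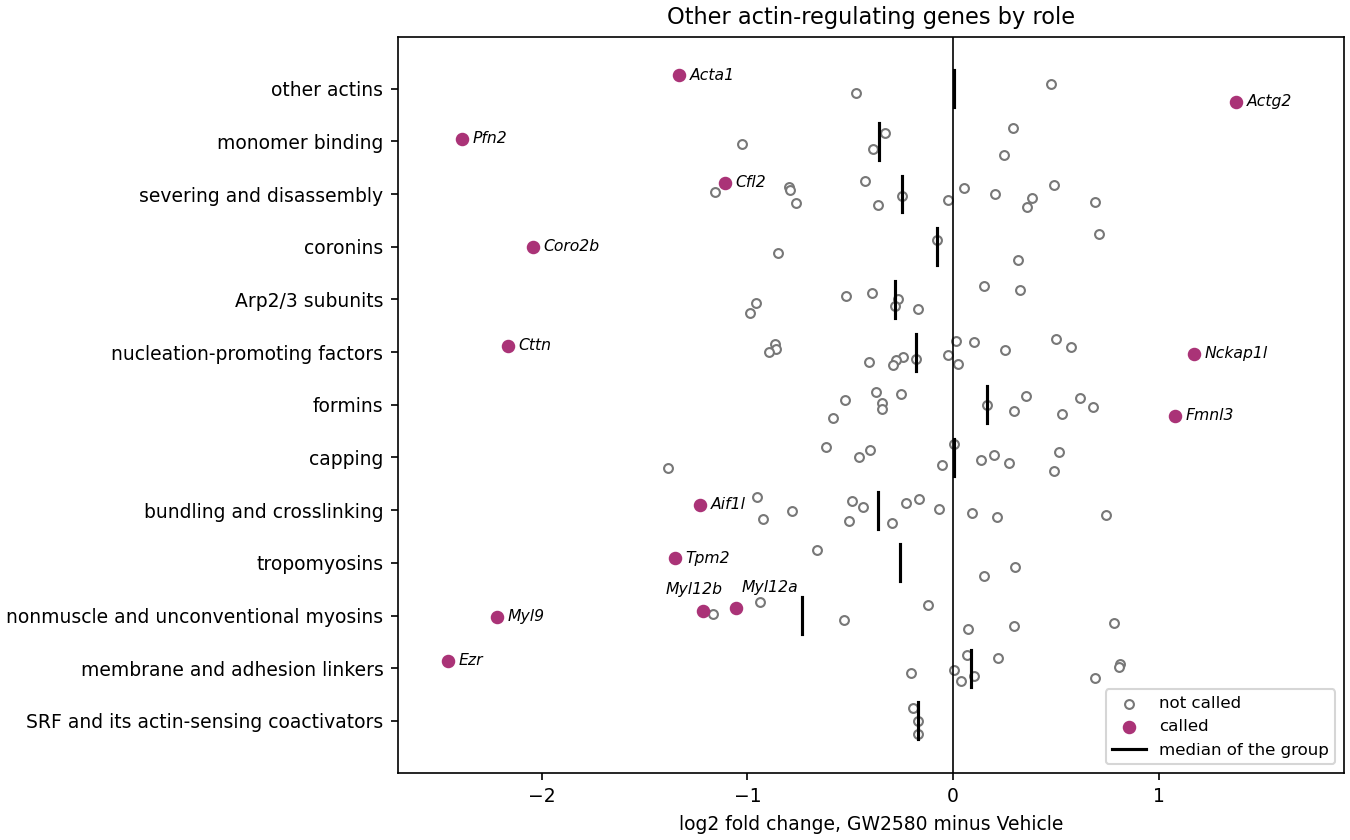
Log2 fold change, GW2580 minus vehicle, of 121 tested genes of the wider actin list in 13 groups by role, with called genes filled and named, the others open, and the median of each group as a bar. The myosin group has the lowest median (-0.74), and the lowest called genes of the other groups, Ezr (-2.46), Pfn2 (-2.39), Cttn (-2.16) and Coro2b (-2.04), had their highest value in Vehicle 5.

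Promoter windows were searched for short motifs, since SRF binds a CArG box. The RefSeq table for GRCm38.p6 held 13 windows of 300 bases (250 before and 50 after a start) for 9 members, all but Actb. A CArG box lay in 1 of the 13, against 1.63% of all 32851 windows. This was the window of Actg1, and 30 bases from its minus strand (chr11:120348566-120348595) are shown with the box in capitals, 81 to 90 bases before the start.
Actg1: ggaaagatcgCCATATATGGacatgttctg
On either strand, GGGCGG lay in 11 of the 13 windows, of 8 members, against 35.7% of all windows, CCAAT in 2 of 13 (Actg1 and Cfl1) against 37.4%, and GAGGAA in 2 of 13 (Aif1 and Arpc1b) against 28.3%. TATAAA lay in 0 of the 13, against 13.6% of all. GGGCGG was held by members that were called and by members that were not, and these matches describe letters only.

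No member passed the test of sex by treatment. It gave an adjusted p of 1.00 for each of the 9 (edgeR), with unadjusted p from 0.230 (Tmsb4x) to 0.944 (Cfl1), against 2.52% of all genes with an unadjusted p under 0.05. In the males alone Tmsb10, Pfn1 and Tmsb4x were called lower, and in the females alone 0 members were. Over all genes, 4621 of 24019 were called in the males, 3446 of them lower, and 794 of 25656 in the females, 530 of them lower.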

How the data were processed

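SMART-Seq v4 libraries of 10 samples were sequenced in pairs. The authors passed the reads through a quality filter, which by their methods removed none, aligned them with STAR to GRCm38 and deposited, per the file headers, featureCounts 1.6.3 counts of uniquely aligned fragments on RefSeq exons (GRCm38.p6), unstranded and not normalized. The deposited lengths, which are no measurement of RNA, gave exon bases. Symbols came from the RefSeq gene table (46029 of 46152 genes). The 28419 genes that passed 1 CPM in 3 or more libraries were scaled by TMM (trimmed mean of M values) and tested with edgeR 4.0.16 (R 4.3.3), treatment as the only term. Calls needed a change above 2-fold with p under 0.05 before adjustment, and Benjamini-Hochberg values over all genes are given beside them. Standard errors are the log2 fold change divided by the square root of F. Log2 CPM used a prior count of 2. Libraries of 1 group differed beyond sampling noise in every pair. The study gives 5 mice per condition, but the labels do not tie a library to an animal, so p-values are read only as the spread between these samples. Counts without molecular identifiers are not independent molecules. Fragments on no exon, ambiguous or aligned to several places were left out of library sizes.

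Alternatives were DESeq2 1.42.0, limma-voom 3.58.1, other scalings, filters, thresholds, sex, the replicate number as a block, single sexes, a length trend (loess, span 0.5), thinned counts and leaving out libraries. Tests were tested on simulated data. The members, lists and tests were chosen with earlier results of these data known. Named genes were all members, the 2 most abundant of each role list, the 5 nearest in profile (at least 20 CPM) and the markers. Other genes were named after their values were seen, as the text states. The results of 1 role list are not reported here. Exact tests and figures used Python 3.11.15, numpy 2.4.6 and matplotlib 3.10.9.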

Additional observations from a re-analysis of the deposited data

Results flagged for a closer look

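Within groups of 5 libraries, a library was marked where its gap to the nearest other library was over 0.71 of the range of its group. Gaps and ranges were taken on log2 CPM for members and on the log2 ratio for ratios. The cut is Dixon's 95% value, which chance passes in about 1 in 20 groups. Of 26 groups of values checked (9 members and 4 ratios in 2 groups), 4 were marked, and all were Vehicle 5. It was the lowest vehicle library for Tmsb4x (932 CPM, gap 0.816 of the range in log2 CPM) and for Actb (3591 CPM, gap 0.794 in log2 CPM). It was the highest for the ratio of Actg1 to Actb (log2 -1.59, gap 0.955) and of Tmsb10 to Tmsb4x (log2 -4.48, gap 0.843). These 4 values share the counts of Actb and Tmsb4x and are not independent. GW2580 5, which held the highest Tmsb4x of all libraries, was not marked within its group on the log2 scale.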

How the results depend on the processing

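Of all genes tested, 3046 were called. The count was 4610 with DESeq2, 4802 with no filter, 1163 with a filter of 5 CPM, 794 in the females, 4621 in the males, 4716 with the length trend of genes of at least 20 CPM removed (added after the data were seen), 928 at an unadjusted p under 0.01 and 0 at an adjusted p under 0.05. It ran from 1684 (without GW2580 1) to 4848 (without GW2580 5). Members called were 2, and 1 with a filter of 5 CPM, with sex as a term, without Vehicle 2 and 5 or with that length trend removed. They were 0 in the females, at p under 0.01 and at an adjusted p under 0.05, and 1 to 4 with single libraries left out (4 without GW2580 5). On the wider list 14 were called, and 7 with limma-voom, 8 with a filter of 5 CPM, 3 in the females, 24 in the males, 5 with that length trend removed, 2 at p under 0.01, 0 at an adjusted p under 0.05, and 7 (without GW2580 1) to 23 (without GW2580 5) with single libraries left out. With library size alone the median of all genes moved from -0.03 to 0.23, with 2123 genes called higher and 875 lower, and 8 and 4 on the wider list. The sign turned in these fits, and the cause was not tested: Actb 0.067 without GW2580 4 (-0.42 to 0.067 over single libraries), Actg1 -0.13 without GW2580 3 (-0.13 to 0.32), Coro1a -0.048 and -0.035 without GW2580 2 or 3 (-0.048 to 0.36), Cfl1 0.27 (that length trend), Tmsb4x 0.14 (females), and Arpc1b 0.072 (library size alone), 0.071 (a length trend over all genes), 0.47 (that length trend) and 0.025, 0.084, 0.17 and 0.014 without Vehicle 1 or GW2580 1, 4 or 5 (-0.28 to 0.17 over single libraries). Among ratios it turned for Actg1 to Actb, -0.13 in the females, for Tmsb10 to Tmsb4x, 0.69 without Vehicle 5, 0.40 without GW2580 5 and 0.79 without Vehicle 2 and 5 (-0.26 to 0.69 over single libraries), and for Arpc1b to Arpc1a, -0.11 without Vehicle 2 and 5.

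No pairing by replicate number was seen in the profiles. The correlations of same-numbered deviations over 7580 genes were -0.05, 0.39, 0.09, -0.44 and -0.57, and 1 of 5 correlated best with its own number. These values cannot show whether libraries were handled in pairs. With the replicate number as a block, 2554 genes were called (1055 higher, 1499 lower), 2 members lower, and 10 genes of the wider list.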
